A study of Mus musculus with 4 samples.

Results

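The 10 genes described here mark fat cells, or adipocytes, and were chosen by name from the 28440 gene rows of a count table of 4 mouse mammary gland tumours. They are the adipokines Adipoq, Lep, Retn and Cfd, the lipid droplet coat genes Plin1, Plin4 and Cidec, the fatty acid handling genes Fabp4 and Lpl, and the lipolysis gene Lipe. The 10 members were all found, each as 1 row under its Entrez gene number. Lep and Cidec lie on chromosome 6, Plin1 and Lipe on 7, Retn and Lpl on 8, and Plin4 on 17, and the positions given below for the others are in GRCm38.p6. The tumours, numbered 1 to 4, are of the genotype MMTV-R26Met, a model in which, as background, the MMTV promoter drives a recombinase that turns on a Met gene placed in Rosa26, mainly in mammary epithelium. All 4 carry that genotype and form 1 group, with no normal fat, normal gland or treated tumour beside them, so the design asks how far the tumours differ from one another. The labels state no age, sex or treatment of the mice and do not say whether each tumour had its own mouse, so p-values measure only the spread between these samples.

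The mammary gland grows inside a pad of white fat, and a mammary tumour that expands into the pad lies next to adipocytes. An adipocyte stores triglyceride in 1 large droplet coated by perilipins. Fatty acids are brought in by lipoprotein lipase and carried by a fatty acid binding protein, and stored fat is released again by lipases acting at the droplet. The cell also secretes hormones and other proteins, the adipokines, into the blood. Most of these genes are direct targets of the nuclear receptor PPAR gamma and of C/EBP factors. Some of them are active outside fat as well, Fabp4 in endothelium and macrophages, and Lpl in muscle, macrophages and the lactating gland.

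Library totals ran from 35220504 to 42809015 counts. Values are CPM, counts scaled to a common library size and adjusted by TMM, a method that corrects for the composition of each library, and intervals are exact 95% binomial intervals that cover counting error only. Milk protein transcripts were present in every tumour, with Csn3 (kappa casein) at 39.4 CPM or more. Tumour 3 stood apart by skeletal muscle markers, whose 8 genes summed to 980.4 CPM there and to 10.7, 26.4 and 18.1 CPM in tumours 1, 2 and 4. Tumour 4 stood apart by milk genes, whose 8 markers summed to 24628 CPM, against 583, 6161 and 3103 CPM in tumours 1, 2 and 3.

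Transcripts of the adipokines and droplet coat genes were scarce in these tumours, and most of these genes were concentrated in tumour 2. Of the 10 members 7 had their highest value in tumour 2, all 4 adipokines and all 3 droplet coat genes. Of all genes tested, 18.9% were highest in that tumour. None of the members peaked in tumour 1, as 22.9% of all genes did. The other 3 members parted from this pattern, with Fabp4 highest in tumour 3, Lpl highest in tumour 4, and Lipe nearly level between tumours 4 and 2. Tumour 3 was the highest for 29.7% of all genes tested, and tumour 4 for 28.5%. In bulk tissue, fewer fat cells and less RNA per fat cell cannot be told apart. The members together held 0.00432% of the counts of tumour 1 (interval 0.00412 to 0.00452%), 0.0111% of tumour 2 (0.0108 to 0.0115%), 0.0128% of tumour 3 (0.0125 to 0.0132%) and 0.00958% of tumour 4 (0.00929 to 0.00989%). Most of these counts belonged to Fabp4, Lpl and Lipe in every tumour, so the total does not follow the adipokines.

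**Figure D1:**
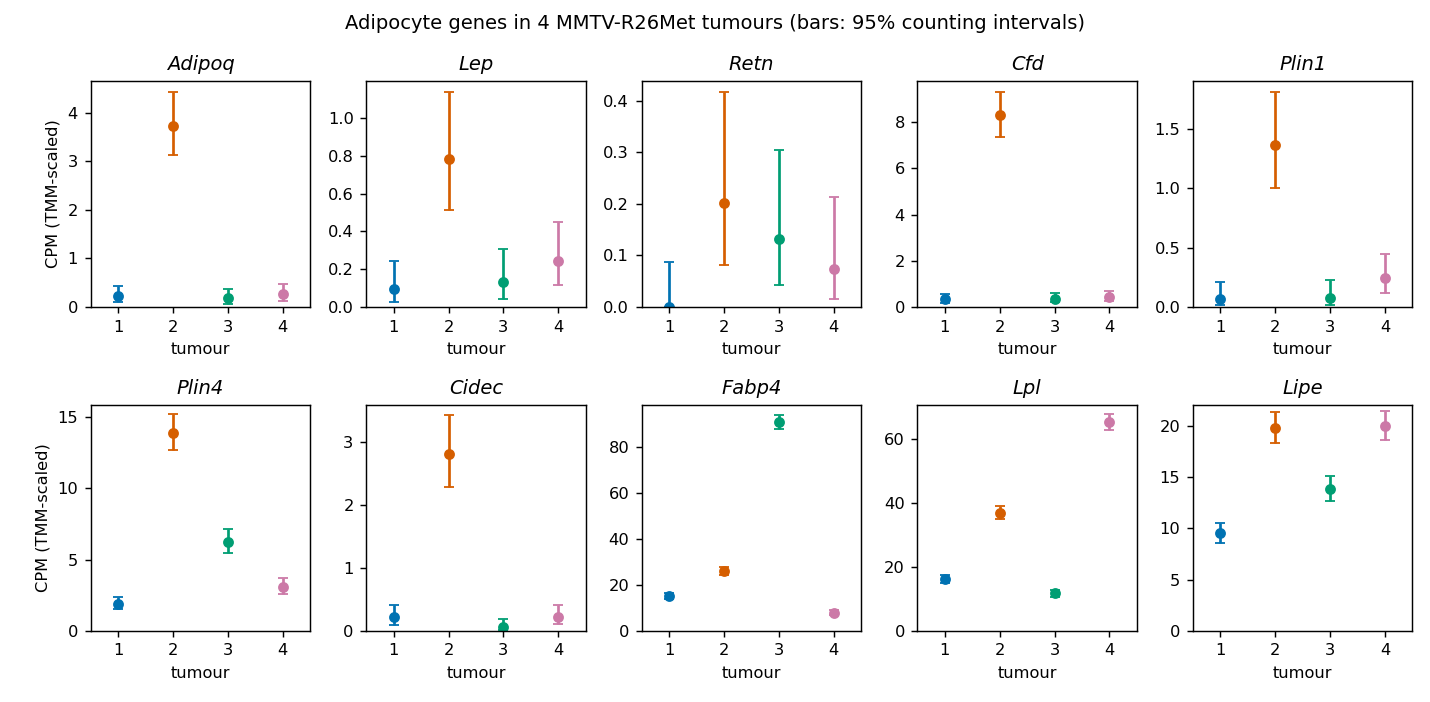
Expression of the 10 adipocyte genes (vertical axes, TMM-scaled CPM, linear from 0, a separate scale per gene) in tumours 1 to 4 (horizontal axes). Points are single tumours and bars are 95% counting intervals. Adipoq, Cfd, Cidec and Plin1 have a single high point in tumour 2, whereas Fabp4 peaks in tumour 3 and Lpl in tumour 4.

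The promoters of 3 adipokines that were highest in tumour 2 are shown because all 3 genes shared that peak and because their listed start is also the start of the gene. The window of Retn, which met both reasons but had only 7 counts in its highest tumour, held none of the motifs and is not shown. Each line gives the 120 bases before the RefSeq start (GRCm38.p6), 5′ to 3′ on the strand of the gene, which is the plus strand for all 3. Capitals mark matches to the motifs searched. Adipoq lies at chr16:23146416-23146535, Cfd at chr10:79890733-79890852 and Lep at chr6:29060101-29060220.
Adipoq: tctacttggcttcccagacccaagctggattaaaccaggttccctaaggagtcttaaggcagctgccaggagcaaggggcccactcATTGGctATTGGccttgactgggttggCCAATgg
Cfd: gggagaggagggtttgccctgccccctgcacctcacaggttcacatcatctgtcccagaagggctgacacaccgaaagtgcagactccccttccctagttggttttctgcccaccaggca
Lep: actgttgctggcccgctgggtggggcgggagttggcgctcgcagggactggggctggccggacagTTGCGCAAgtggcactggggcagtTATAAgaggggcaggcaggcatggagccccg
The motifs searched in the 250 bases before each start were a C/EBP motif (TTGCNNAA, both strands), the CCAAT box (both strands), a TATA box (TATAA, gene strand) and a PPAR response element of the DR1 kind, AGGNCA repeated after 1 base (both strands). None of these matches overlapped in the 3 windows printed. The 10 windows given for members covered 8 of the 10 genes, all but Fabp4 and Lpl. A C/EBP motif was found in 3 of these 10 windows (for Lep, Plin1 and Cidec), beside 9.56% of the 32851 windows of all genes. The match before Lep was the full palindrome TTGCGCAA, beginning 55 bases before the start, with a TATA box at 31 bases. Adipoq had CCAAT boxes at 34, 27 and 7 bases, a motif held by 33.8% of all windows. The PPAR element was in none of the member windows and in 0.338% of all windows, and Cfd matched none of the motifs. A match is a run of letters and not a shown binding site.

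Among the adipokines, Cfd encodes complement factor D, or adipsin, a serine protease of the alternative complement pathway that fat cells secrete. Cfd (chromosome 10, 79890853 to 79892655) had 15, 287, 14 and 18 counts in tumours 1 to 4, which are 0.354, 8.30, 0.366 and 0.440 CPM. Tumours 1, 3 and 4 had overlapping counting intervals and tumour 2 stood 18.9-fold above the next (interval 11.7 to 32.3). Cfd was 1 of the 2 members that passed the test, which asks whether a gene varies more among the tumours than other genes of its expression level do (edgeR adjusted p = 5.73e-05). Over all 15808 genes tested, 3.63% passed. The call rests on tumour 2, since the adjusted p without it was 1 and the fold from lowest to highest tumour was 1.23.

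Adipoq encodes adiponectin, a hormone made almost only by adipocytes and so the most specific gene of the set. Adipoq (chromosome 16, 23146536 to 23157968) had 10, 129, 7 and 11 counts in tumours 1 to 4, or 0.236, 3.73, 0.183 and 0.269 CPM. Tumour 2 was again alone at the top, 13.9-fold above the next tumour (interval 7.51 to 28.5), and its counting interval of 3.12 to 4.43 CPM lay clear of all others, which reached at most 0.481 CPM. Adipoq did not reach the count minimum in all libraries and was not tested with the main filter. When the minimum was required in 1 library only, a filter that lets in genes because 1 tumour is high, its edgeR adjusted p was 0.0916, and 5.01% of all genes passed there.

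Lep encodes leptin, the hormone that reports fat stores to the brain. Its counts were 4, 27, 5 and 10 in tumours 1 to 4, or 0.0943, 0.781, 0.131 and 0.244 CPM. Tumour 2 was highest by 3.20-fold over tumour 4 (interval 1.5 to 7.4). Retn encodes resistin, a secreted protein of mouse fat cells that in humans comes mainly from monocytes. Retn had 0, 7, 5 and 3 counts, and the 0 counts of tumour 1 allow up to 0.0708 CPM. Tumour 2 had the highest value at 0.202 CPM, and its interval of 0.0814 to 0.417 CPM overlapped those of all the other tumours. The interval of the ratio of tumour 2 to tumour 1 had a lower bound of 1.77. The ratio of tumour 2 to tumour 3 had an interval of 0.423 to 6.19, so these tumours were not ordered at this depth. Summed over the 4 adipokines, the tumours held 0.684, 13.0, 0.810 and 1.03 CPM in order of number.

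Among the droplet coat genes, Plin1 encodes perilipin 1, the gatekeeper that keeps lipases off the droplet until hormones signal release. Plin1 had 3, 47, 3 and 10 counts in tumours 1 to 4, or 0.0708, 1.36, 0.0784 and 0.244 CPM. Tumour 2 was 5.57-fold above tumour 4 (interval 2.78 to 12.4), and tumours 1 and 3 were at the level of 3 counts. Cidec, also called Fsp27, encodes the protein that fuses small droplets into the single large droplet of white fat. It had 9, 97, 2 and 9 counts, or 0.212, 2.81, 0.0523 and 0.220 CPM. For Cidec tumour 2 exceeded the next tumour 12.8-fold (interval 6.45 to 28.8). Neither gene reached the main count minimum. With the minimum required in 1 library only, edgeR adjusted p was 0.0581 for Cidec, 0.355 for Plin1 and 1 for Lep, so none of these 3 passed there.

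Plin4 encodes perilipin 4, a coat protein of small droplets that skeletal muscle also makes. Its CPM in tumours 1 to 4 were 1.91, 13.9, 6.27 and 3.10. Tumour 2 was highest, but tumour 3 was second and the gap between them was 2.22-fold (interval 1.90 to 2.61), less than for Cfd, Adipoq, Cidec and Plin1. Plin4 did not pass (edgeR adjusted p = 0.489). The droplet coat genes summed to 2.19, 18.1, 6.40 and 3.57 CPM in tumours 1 to 4. Of all genes tested, 0.765% were highest in tumour 2 and at least 2-fold above the next tumour, and 6 of the 10 members were, all but Retn among the 7 named above. Only Cfd and Plin4 of these 6 were among the genes tested, and low counts make large folds more frequent, so these shares are set side by side without a test.

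**Figure D2:**
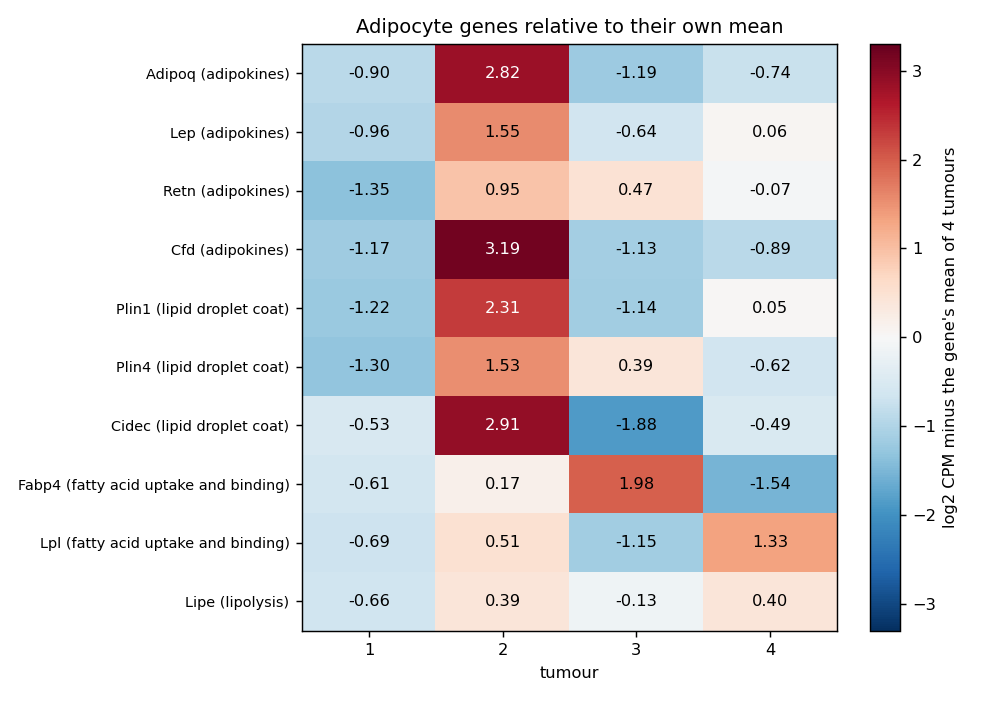
Log2 CPM of each adipocyte gene minus its own mean over the 4 tumours, with genes as rows ordered by role and tumours as columns; red is above and blue below the mean. The column of tumour 2 holds 2.82 for Adipoq, 3.19 for Cfd and 2.91 for Cidec, while Fabp4 has 1.98 in tumour 3 and Lpl 1.33 in tumour 4.

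Fabp4 encodes the fatty acid binding protein of fat cells, known as aP2, and is also made by endothelium of small vessels and by macrophages. Fabp4 (chromosome 3, 10204342 to 10208616) had 642, 896, 3487 and 325 counts in tumours 1 to 4, or 15.1, 25.9, 91.1 and 7.94 CPM. Tumour 3 was highest, 3.52-fold above tumour 2 (interval 3.27 to 3.79), and tumour 4 was lowest. Fabp4 was the other member that passed (edgeR adjusted p = 0.000671), a call that was lost without tumour 3 (edgeR adjusted p = 1), where the fold from lowest to highest tumour was 3.27, against 11.5 with all 4 tumours and 6.03 without tumour 4. The order of its tumours was not that of Adipoq, which was at its lowest in tumour 3 with 7 counts. The 8 endothelial markers summed to 232, 180.3, 219 and 175 CPM in tumours 1 to 4, and 0 of the 8 passed by edgeR (0 at an unadjusted p under 0.05, and 0 by DESeq2). The 8 macrophage markers summed to 495, 751, 542 and 608 CPM, again with the same counts of 0. Of the 8 endothelial markers, 4 were highest in tumour 3, beside 29.7% of all genes tested, 3 in tumour 1 and 1 in tumour 4. Of these 8, 5 were lowest in tumour 4, as was Fabp4, beside 4394 of the 15808 genes tested. Skeletal muscle markers were highest in tumour 3 for 7 of 8 and neutrophil markers for 5 of 7, beside the same 29.7% of all genes tested. Of the muscle markers, Myh1 was at 0 in tumours 2 and 4. Of the neutrophil markers, Elane was at 0 in tumours 1 and 3, Camp at 0 in tumour 1 and Ngp at 0 in tumour 2. By their sums, both lists shared with Fabp4 the highest tumour but were lowest in tumour 1, whereas Fabp4 was lowest in tumour 4. Outside tumour 3 the muscle sum was mostly Mb, at 9.08, 24.5 and 16.6 CPM in tumours 1, 2 and 4. Of the 8 muscle markers, Ckm and Mylpf had the tumour order of Fabp4 and the others did not. The part of any of these lists in the Fabp4 values was not tested.

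Fabp5, the close relative of Fabp4 that epithelium and macrophages make, had 282, 215, 857 and 219 CPM in tumours 1 to 4. It was also highest in tumour 3, and it did not pass (edgeR adjusted p = 0.133).

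Lpl encodes lipoprotein lipase, which is anchored in capillaries and frees fatty acids from circulating triglyceride. Its CPM in tumours 1 to 4 were 16.1, 36.8, 11.7 and 65.2. Tumours 4 and 2 were the higher pair, and the order 4, 2, 1, 3 differed from that of Fabp4 and from that of every adipokine. Lpl did not pass (edgeR adjusted p = 0.0848). Milk gene markers were also highest in tumour 4 and second in tumour 2 by their sum, with none at 0 in any tumour. Of these 8 markers, 7 passed the test by edgeR, against 3.63% of all genes. The count was 5 by DESeq2, 6 without tumour 1 or tumour 3, and 5 of 7 tested without tumour 4. The sum of these markers was lowest in tumour 1, and Lpl was lowest in tumour 3. Of the 8, 6 were lowest in tumour 1 and 2 in tumour 3, beside 3926 and 4377 of the 15808 genes tested. Those lowest in tumour 3 were Lalba and Xdh. Xdh had 304, 671, 137 and 799 CPM in tumours 1 to 4, the tumour order of Lpl. The part of milk gene markers in the Lpl values was not tested. Lipe encodes hormone-sensitive lipase, which cuts diacylglycerol at the droplet. Lipe was the steadiest member, at 9.50, 19.8, 13.8 and 20.0 CPM, a mean of 15.8 ± 5.05 (SD, n = 4), and did not pass (edgeR adjusted p = 1).

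Of the 5 members tested, 2 passed in all, Cfd and Fabp4, and they were highest in different tumours. The count was 2 as well with no count filter (3.79% of all genes past) and with a common dispersion (4.31%), and without tumour 1 (2.58%) or tumour 4 (2.29%). It was 1 where a mean of at least 5 CPM was required (4.15%), under Holm adjustment (1.25%), without tumour 2 (2.52%) and without tumour 3 (2.58%). DESeq2's rule for dispersion outliers marked 0 members (0.576% of all genes), where edgeR gave 4 members an unadjusted p under 0.05. The other 5 members were below the count minimum. The SD of log2 CPM over the tumours had a median of 1.36 over all 10 members and 0.35 over all genes tested, although scarce genes spread more by counting error alone.

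**Figure D3:**
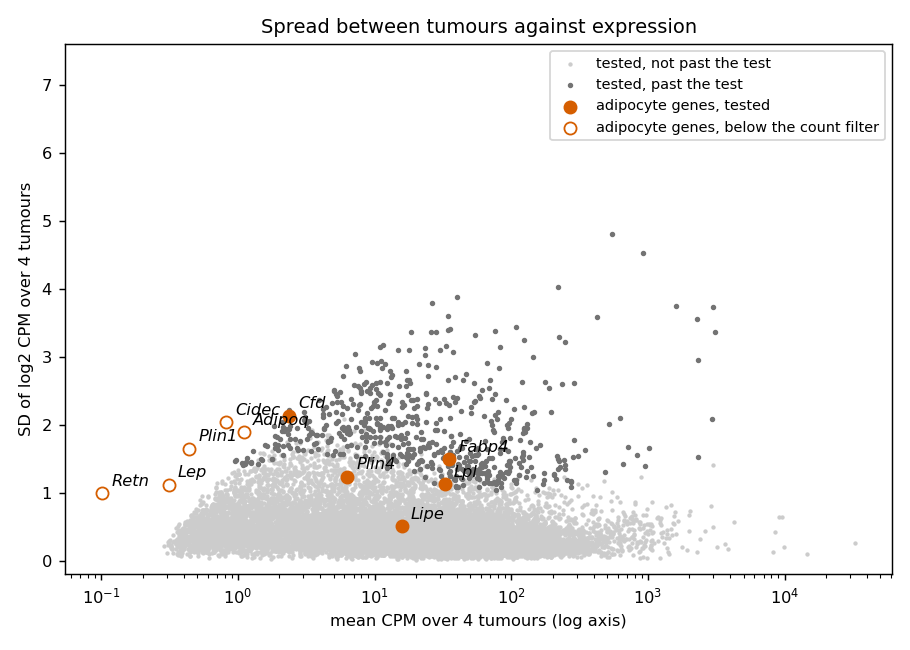
SD of log2 CPM over the 4 tumours (vertical axis) against mean CPM (horizontal axis, log scale) for 15808 tested genes, with 574 genes past the test in dark grey and the adipocyte genes in orange, open where they were below the count minimum. Cfd and Fabp4 lie among the genes past the test, and Lipe lies within the bulk of genes.

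Levels of different members can be set side by side per kilobase of transcript (CPM per kb, by the longest transcript with a RefSeq record). In tumour 2 the order was Fabp4 (28.9 CPM per kb), Cfd (9.0), Lpl (8.94), Lipe (5.47), Adipoq (2.89), Plin4 (2.42), Cidec (1.63), Plin1 (0.710), Lep (0.240) and Retn (0.178). Cfd and Lpl were neighbours whose levels were within counting error of each other. In tumour 1 the same scale gave 16.9 for Fabp4, 3.90 for Lpl and 2.63 for Lipe, and at most 0.384 for each of the other members. Fabp4, Lpl and Lipe were the 3 highest members in tumours 1, 3 and 4, and in tumour 2 Cfd came between Fabp4 and Lpl.

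The transcription factors that set up fat cells gave 0 of 10 past the edgeR test (2 at an unadjusted p under 0.05, and 0 by DESeq2). Pparg, the nuclear receptor at the head of the programme, was low throughout at 0.943, 1.53, 0.471 and 1.17 CPM. Its highest value was in tumour 2, with 53 counts against 48 in tumour 4. Cebpa, its partner, had 7.05, 26, 6.64 and 25.4 CPM, a pair of higher tumours (2 and 4) that is not the pattern of Adipoq. Srebf1, which drives lipid synthesis in many cells, was the most abundant of the list at 792, 394, 454 and 479 CPM, and Klf15 had the largest SD, with 8.16, 13.2, 4.73 and 1.29 CPM (edgeR adjusted p = 0.384).

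Lipolysis partners of Lipe shared no order, with 5 of 10 highest in tumour 4, 3 in tumour 1 and 2 in tumour 3. Of all genes tested, 28.5%, 22.9% and 29.7% were highest in these tumours. Of 8 tested, 2 passed by edgeR, against 3.63% of all genes. The count was 1 under Holm adjustment and with a common dispersion, where G0s2 passed, and 0 by DESeq2. Abhd5, the co-activator of the first lipase of the pathway, had 79.2, 151, 64.4 and 399 CPM (edgeR adjusted p = 0.00959), which did not hold on leaving out tumour 1 (0.0701), tumour 3 (0.054) or tumour 4 (0.933). G0s2, the inhibitor of that lipase, had 15.7, 19.7, 1.33 and 61.4 CPM (edgeR adjusted p = 1.41e-05, and 0.172 without tumour 3). By their sum, milk gene markers were highest in tumour 4 together with Abhd5 and G0s2, and their part in these values was not tested. The lipase itself, Pnpla2, did not pass, at 38.9, 64.1, 33.1 and 93.9 CPM. Adrb3, the adrenergic receptor that triggers lipolysis in mouse fat, had 4, 4, 2 and 5 counts and no peak in tumour 2.

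Among other droplet genes 0 of 9 tested passed by edgeR (1 at an unadjusted p under 0.05, and 0 by DESeq2). Plin2, the coat protein of droplets in most cells and of milk fat, had 242, 233, 129 and 626 CPM, highest in tumour 4 (edgeR adjusted p = 0.174). Plin5, the perilipin of oxidative tissues, had 1.46, 2.23, 0.392 and 1.37 CPM, highest in tumour 2 by 1.52-fold over tumour 1 (interval 1.08 to 2.16). Plin2 did not peak in tumour 2, and the excess of Plin5 there was smaller than that of Plin1 and Cidec. Of the 10 genes of this list, 4 were highest in tumour 2 and 4 in tumour 4, beside 18.9% and 28.5% of all genes tested.

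For triglyceride synthesis, 2 of 7 tested genes passed by edgeR, against 3.63% of all genes, 1 of 7 (Acsl1) under Holm adjustment and 0 of 7 by DESeq2. Gpd1, which makes the glycerol backbone, had 7.05, 81.5, 17.9 and 66.4 CPM (edgeR adjusted p = 0.000448, and 0.269 without tumour 1). Acsl1, which activates fatty acids, had 19.9, 22.6, 7.16 and 121 CPM (edgeR adjusted p = 1.33e-05, and 1 without tumour 4). Its highest tumour was also that of the summed milk gene markers, whose part was not tested. Dgat1, an enzyme of the last step, had a mean of 54.3 ± 12.1 CPM (SD, n = 4). Pck1, which supplies glycerol in fat, was below the count minimum with 10, 44, 6 and 13 counts, and like the adipokines it was highest in tumour 2.

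Partners of Lpl and fatty acid uptake genes had 0 of 6 tested past the edgeR test (2 at an unadjusted p under 0.05, and 0 by DESeq2), and Cd36 alone passed when tumour 3 was left out. Cd36, the fatty acid transporter, had 8.54, 29.7, 23.3 and 64.9 CPM (edgeR adjusted p = 0.0665). Gpihbp1, which anchors Lpl in capillaries, was highest in tumour 1 at 18 CPM, a tumour in which Lpl was low. Receptors for the adipokines and insulin also had 0 of 9 past the edgeR test (1 at an unadjusted p under 0.05, and 0 by DESeq2). Adipor1 and Adipor2, the adiponectin receptors, had 141 ± 11.6 and 156 ± 48.9 CPM (SD, n = 4). Lepr, the leptin receptor, had 5.47, 8.79, 24.9 and 23.6 CPM (edgeR adjusted p = 0.526), so the tumours with more Lepr were not the tumour with more Lep.

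Of 12 other genes known to be high in white fat, 7 were tested and 3 passed by edgeR, against 3.63% of all genes. Without tumour 3 the count was 0, under Holm adjustment 2 (Mest and Thrsp) and by DESeq2 1 (Mest). Car3, carbonic anhydrase 3 of fat and slow muscle, had 1.44, 15.2, 34.4 and 2.81 CPM (edgeR adjusted p = 0.000518, and 0.0624 without tumour 3). Thrsp, a regulator of lipid synthesis in fat, liver and lactating gland, had 41.7, 87.6, 2.74 and 143 CPM (edgeR adjusted p = 3.95e-08, and 0.366 without tumour 3). Mest, an imprinted gene of growing fat and embryonic tissue, had 6.79, 3.90, 317 and 2.93 CPM (edgeR adjusted p = 2.13e-25, and 1 without tumour 3). None of the 3 had its highest value in tumour 2. Adig, another of the 12, had 1.13, 1.21, 0.863 and 7.08 CPM. It was highest in tumour 4, 5.83-fold above tumour 2 (interval 4.21 to 8.26). Adig did not pass (edgeR adjusted p = 0.121) but did so with a common dispersion. Of the 12 genes, 4 were highest in tumour 2 and 5 in tumour 4, beside 18.9% and 28.5% of all genes tested. By their sums, skeletal muscle markers were highest in tumour 3 together with Car3 and Mest, and milk gene markers in tumour 4 together with Thrsp and Adig. The part of either in these values was not tested.

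Thermogenic fat genes had 0 of 5 tested past the edgeR test (2 at an unadjusted p under 0.05, and 0 by DESeq2). With a common dispersion 2 of the 5 passed, Ppargc1a and Prdm16, where 4.31% of all genes did. Prdm16 had 1.37, 1.85, 0.627 and 7.86 CPM in tumours 1 to 4 (edgeR adjusted p = 0.0977). Ucp1, the uncoupling protein that defines brown fat, had 0, 1, 0 and 0 counts, and Elovl3 had 0 in all 4 tumours. Ppargc1a, a mitochondrial regulator of brown fat and muscle, had 7.52, 4.8, 17.7 and 1.0 CPM (edgeR adjusted p = 0.0871) and passed when tumour 1 was left out. Over the 8 lists just described, 7 of 60 tested genes passed, against 3.63% of all genes tested. Without tumour 3 the count was 3 of 61 (Acsl1, Gpd1 and Cd36). Of the 60, 4 passed under Holm adjustment, 10 with a common dispersion and 1 (Mest) by DESeq2. The median SD of log2 CPM over their 79 genes was 0.67. Of the 79, 19 were highest in tumour 2 and 27 in tumour 4, beside 18.9% and 28.5% of all genes tested.

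**Figure D4:**
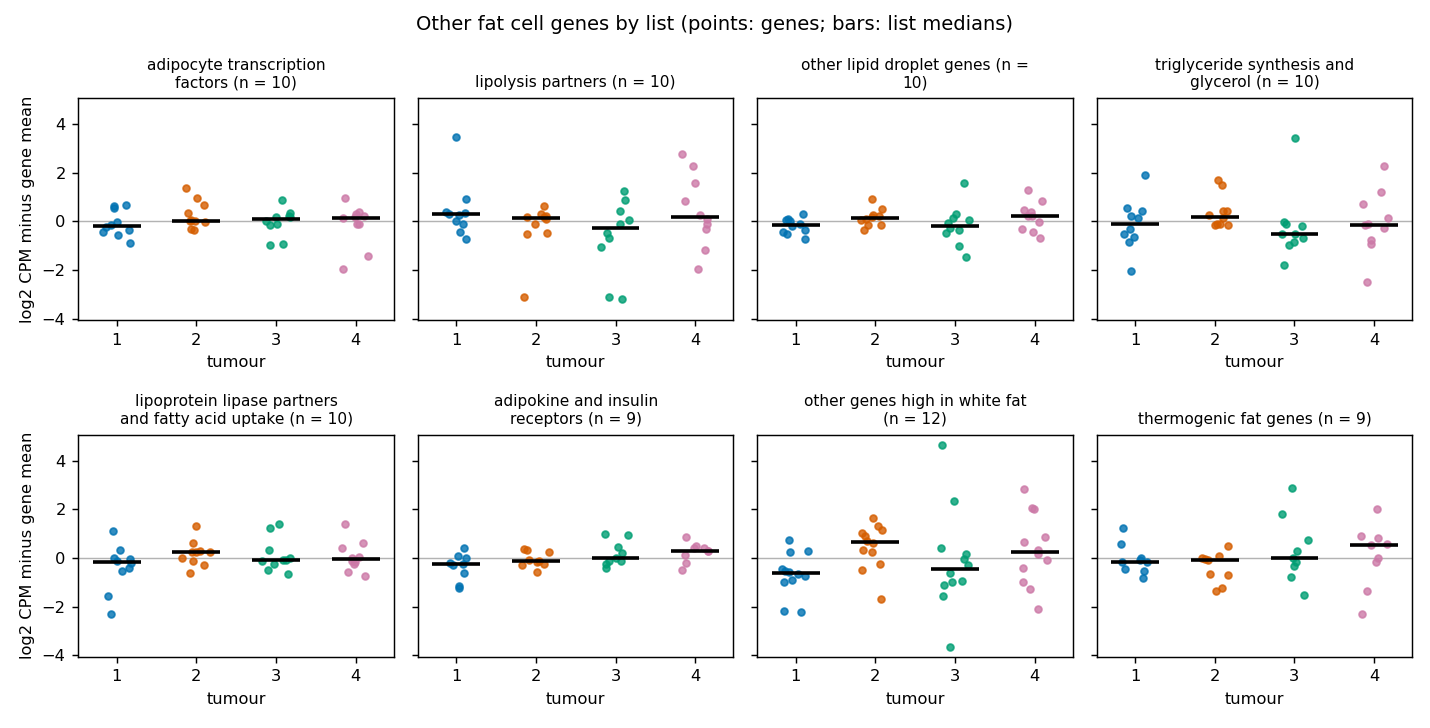
Log2 CPM minus the gene's mean (vertical axes) in tumours 1 to 4 (horizontal axes) for the 8 lists of other fat cell genes. Points are genes and bars are list medians. The medians in tumour 2 run from -0.11 for adipokine and insulin receptors to 0.66 for other white fat genes, against 1.54 for the 10 adipocyte genes.

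In none of the 7 lists of markers of other cells did the sum in tumour 2 exceed the other tumours by as large a ratio as the adipokine sum. The 10 markers of fat progenitors and fibroblasts summed to 1621, 2057, 2333 and 2582 CPM in tumours 1 to 4, and 0 of 9 tested passed by edgeR (0 at an unadjusted p under 0.05, and 0 by DESeq2). Dlk1, a marker of preadipocytes, had 1 count in tumour 1 and 0 in the others. Macrophage markers were highest in tumour 2 for 6 of 8, beside 18.9% of all genes tested. Their margin was smaller, with the sum 751 CPM there and 495 to 608 CPM elsewhere, and their part in the adipokine values was not tested. Lymph node and B cell markers summed to 10.8, 3.64, 7.76 and 2.61 CPM. Cr2, a complement receptor of B cells, was at 0 counts in tumours 2 and 4. The 7 measured neutrophil markers summed to 15, 27.4, 88.1 and 50.9 CPM, with S100a9 past the test (edgeR adjusted p = 0.0183, lost without tumour 2 or 3 at 0.179 and 1, and by DESeq2). By their sum, milk gene markers in tumour 2 were second to tumour 4. Of the 8, 7 were highest in tumour 4, beside 28.5% of all genes tested, and 1, Lalba, in tumour 2. Lalba had 158, 522, 10.7 and 465 CPM in tumours 1 to 4, the tumour order of Adipoq, whereas Adipoq was nearly level among tumours 1, 3 and 4. The part of milk genes in the Adipoq values was not tested.

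**Figure D5:**
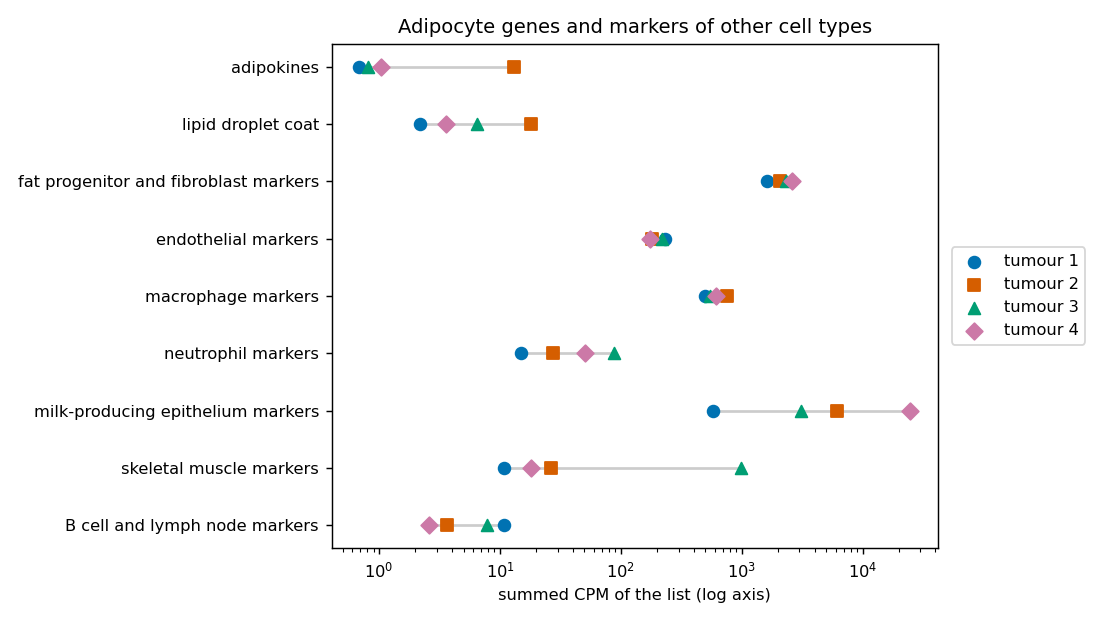
Summed CPM (horizontal axis, log scale) of 2 adipocyte groups and 7 lists of markers of other cells (rows), with a symbol per tumour. Adipokines sit at 13.0 CPM in tumour 2 and at 0.684 to 1.03 CPM in the others, while skeletal muscle markers are far to the right in tumour 3 and milk gene markers in tumour 4.

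The genes most like Adipoq over the 4 tumours were found by the root mean square difference of log2 CPM after subtracting each gene's mean, over 12739 genes whose mean was 1 CPM or higher. The nearest were Cela1, an elastase-like protease (difference 0.42), Dhh, a hedgehog ligand (0.52), Plb1, a phospholipase (0.56), Aldh3b2, an aldehyde dehydrogenase (0.57) and Gsta4, a glutathione transferase (0.57). Cela1 had 2.78, 28.3, 1.12 and 3.3 CPM in tumours 1 to 4, and Gsta4 had 1.16, 13.1, 2.25 and 1.42 CPM. All 5 peaked in tumour 2, as the measure favours, and 57 genes lay within a difference of 1. The mean profile of the 5 tested members mixed peaks in 3 tumours and ran from -0.89 in tumour 1 to 1.16 in tumour 2. It was nearest to Cd14, Upp1, Cxcl10, Gfra2 and Crip1 at differences of 0.10 to 0.16, and 10437 of the 12739 genes lay within a difference of 1 of it.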

How the data were processed

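RNA of all 4 tumours was poly-A selected, copied by random priming and sequenced as paired reads, per the labels' protocols. The authors deposited raw whole-number counts per Entrez gene, with no normalization. FastQC and the builds GRCm38 and mm10 are named in the submitters' processing notes. No source used here names the aligner, the counter, the annotation or the strand setting, so overlapping genes and close relatives carry uncertain counts. Of 28440 rows, 86.08% matched a symbol in the RefSeq table (GRCm38.p6), and 0 columns of per-sample values were left unused. In tumours 1 to 4 the counts summed to 42809015, 35220504, 36885892 and 41756363. A rough upper bound for a gene with 0 counts is 3, which is 0.0708, 0.0868, 0.0784 and 0.0733 CPM. The exact intervals of 0 counts reach 0.087, 0.107, 0.0964 and 0.0901 CPM. No library was a copy of another (chi-square of at least 141.8 per degree of freedom in every pair).

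Genes were kept by filterByExpr in edgeR 4.0.16 (R 4.3.3; 10 counts at the median library size in every library and 15 in total) and TMM-scaled. With 1 group there is no contrast. A negative binomial model with only an intercept was fitted to each gene using trended dispersion. Its deviance was compared with chi-square, and p-values were Benjamini-Hochberg adjusted over all 15808 genes (threshold 0.05). The code was tested on simulated counts. Log2 CPM used a prior count of 2. Transcript lengths came from the GENCODE annotation of GRCm38. Intervals used SciPy 1.17.1. Alternatives were other scalings, filters, adjustments and dispersions, DESeq2 1.42.0 dispersion outliers and leaving out each tumour. Members and lists were chosen with earlier results of these data known. The named genes are all members, per list those past the test, the most abundant and the most variable, and those nearest in pattern. Pparg, Cebpa, Pnpla2, Adrb3, Pck1, Gpihbp1, the adiponectin receptors, Adig, Ucp1, Elovl3, Prdm16, Dlk1, Cr2, Xdh, Ckm and Mb were added after their values were seen. The neutrophil marker Ly6g was not analysed here.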

Additional observations from a re-analysis of the deposited data

Results flagged for a closer look

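In 55 genes described here, the gap between the most extreme tumour and its neighbour was compared with the range of the 4 tumours on the CPM scale, and 20 had a gap above the 95% critical value of Dixon's test. Chance gives about 1 in 20 where values are normally distributed, which was not checked for these CPM values. Genes had been named for differing between tumours, or for resembling Adipoq, so more than that share was built in.

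Among the 10 members 4 were marked, all for a high tumour 2. Adipoq was at 3.73 CPM there, Plin1 at 1.36, Cidec at 2.81 and Cfd at 8.30 CPM, and the next tumour was at 0.269, 0.244, 0.220 and 0.440 CPM in the same order of genes.

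Of the other genes marked for tumour 2, Adgre1, a macrophage marker, was at 66.3 CPM and the nearest tumour at 41.0 CPM. The genes chosen for a pattern like Adipoq or the mean profile were Cela1 at 28.3, Dhh at 3.62, Plb1 at 21.9, Aldh3b2 at 14.2, Gsta4 at 13.1 and Cxcl10 at 32.5 CPM.

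Tumour 3 was marked for Fabp5 at 857 CPM, Mest at 317 CPM and the skeletal muscle genes Mylpf at 44.1 and Acta1 at 344 CPM. Tumour 4 was marked for Acsl1 at 121 CPM and the milk genes Csn2 at 8476, Wap at 102, Btn1a1 at 410.1 and Fabp3 at 38.5 CPM.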

How the results depend on the processing

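The members past the test numbered 2, and 2 also under RLE scaling, library size alone, no count filter, the count minimum in 1 library and a common dispersion. With a mean of at least 5 CPM required, 1 passed, since Cfd was too scarce to enter. With Holm adjustment 1 passed, since Fabp4 had adjusted p = 0.153. DESeq2's rule for dispersion outliers marked 0 members, while 4 members had an unadjusted edgeR p under 0.05. Leaving out each tumour gave 1 to 2, with Cfd lost without tumour 2 and Fabp4 without tumour 3. Of all genes, 574 passed, against 895 with no count filter, 945 with the minimum in 1 library, 198 with Holm adjustment, 91 by DESeq2 and 367 to 417 with a tumour left out. The cause was not tested. The fold between the highest and lowest summed CPM of the members was 2.84, and 1.27 to 2.85 with a tumour left out, lowest without tumour 1. Folds of single members stayed within counting error in 20 of 20 cases under other scalings and moved beyond it in 13 of 40 with a tumour left out. Depth limits Retn, Lep, Plin1 and Cidec, with at most 10 counts outside tumour 2. It also limits Adipoq, with 10, 7 and 11 counts in tumours 1, 3 and 4, and Cfd, with 15, 14 and 18. No paired analysis was possible because all samples form 1 group.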

Other observations

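Some listed genes below the count minimum in at least 1 tumour had uneven counts and were picked out after their values were seen. Mogat1, an enzyme of triglyceride synthesis, had 8, 12, 174 and 1 counts in tumours 1 to 4. Apoc2, the cofactor of Lpl, had 9, 110, 114 and 43 counts. Slc7a10, an amino acid transporter of white fat, had 9 counts in tumour 2, 3 in tumour 4 and 0 in the others. Without the count filter, which lets in genes because 1 tumour is high, 11 of 77 listed genes passed by edgeR, against 3.79% of all genes, among them Mogat1 but not Apoc2.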
